A study of Homo sapiens with 24 samples.

Results

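The 10 genes described here, ATF4, DDIT3, ASNS, PSAT1, PHGDH, TRIB3, CHAC1, SESN2, DDIT4 and XBP1, belong to the integrated stress response that the transcription factor ATF4 leads and to the unfolded protein response beside it. They were taken by name from the 57820 genes counted in each of 24 RNA-seq libraries, and all 10 were counted and tested in every comparison. The libraries form 8 groups of 3 biological replicates. The first 4 groups are AID-DIvA U2OS cells, osteosarcoma cells carrying the restriction enzyme AsiSI, either WT or ID3-KO. Of each genotype 3 libraries come from untreated cells and 3 from cells that had mocetinostat, which inhibits class I HDACs, for 24 h and a recovery of 24 h in drug-free medium. The other 4 groups are plain U2OS cells of the same genotypes, untreated or harvested straight after 24 h of mocetinostat, with no recovery, as the study's description and methods were read. Stage and cell line therefore coincide and cannot be told apart. The question put to these data is how the stress response genes moved with class I HDAC inhibition, before and after recovery, and whether loss of ID3, an inhibitor of basic helix-loop-helix transcription factors, came with another response.

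In the integrated stress response, kinases that sense unfolded protein, missing amino acids, viral RNA or missing heme phosphorylate the translation factor eIF2alpha, so that most protein synthesis slows while the ATF4 mRNA is translated more. ATF4 is thus regulated largely at translation, and its mRNA is an incomplete measure of its activity. The protein pairs with other leucine zipper factors and drives genes for amino acid synthesis and transport, for redox balance and for the arrest of growth, and with lasting stress it induces DDIT3, also called CHOP. XBP1 belongs to the IRE1 branch of the unfolded protein response, where its mRNA is spliced into the form that encodes the active factor, a step that counts per gene do not show.

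Depth was not limiting for these genes. The libraries held 37878751 to 76906266 counts in AID-DIvA cells and 46285533 to 70692114 in U2OS cells, and the lowest count of any of the 10 genes in a library was 412. In 12 libraries, all AID-DIvA, the field for treatment and the title disagree, and groups follow the title. ID3 mRNA was lower in untreated KO than in untreated WT cells, with log2 fold changes of -0.56 ± 0.07 (SE, adjusted p = 8.4e-06) in AID-DIvA and -1.03 ± 0.17 (adjusted p = 0.0065) in U2OS, but it was still counted, and the sources used here do not say whether the knockout is 1 clone. Of the osteoblast lineage markers, SPARC (526 to 1030 TPM), COL1A1 (243 to 816 TPM) and SPP1 (21.7 to 95.6 TPM) were detected in every library. So were RUNX2 (4.94 to 19.6 TPM), ALPL (0.63 to 6.68 TPM) and, at low levels, BGLAP (0.0973 to 1.24 TPM) and COL1A2 (0.0142 to 0.44 TPM). SP7 stayed at or below 0.0917 TPM and IBSP was at 0 in 9 libraries. The leukocyte marker PTPRC stayed at or below 0.152 TPM, the endothelial PECAM1 was at 0 in all 24 libraries, and the epithelial EPCAM was present at 5.32 to 14.2 TPM.

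In 3 groups, replicate 1 stood apart from the other replicates. The SD of the log2 difference between 2 libraries was 0.389 and 0.392 for pairs with replicate 1 of untreated WT U2OS cells, against 0.082 for the other pair. It was 0.223 and 0.274 against 0.092 in recovered KO AID-DIvA cells, and 0.163 and 0.179 against 0.08 in recovered WT AID-DIvA cells. The remaining 15 pairs within the other groups lay between 0.066 and 0.157. Among them, pairs with replicate 3 of untreated KO AID-DIvA cells had 0.141 and 0.157, against 0.086 for the other pair. These are close to the values of recovered WT AID-DIvA cells, but that KO library was not counted among those that stood apart. Replicate 1 of untreated WT U2OS cells was the highest of its group for all 10 genes on the CPM scale, on which a count is divided by its library's TMM-adjusted total within a cell line. How many of all genes did so was not counted. On the deposited TPM it was not the highest for PSAT1 (84.2, 84.0 and 88.1 TPM in replicates 1 to 3) or SESN2 (45.3, 48.7 and 45.1 TPM). Where leaving out one of the 3 replicates 1 that stood apart changed a call of the 10 genes, the value without it is given beside the result. These libraries were picked by their spread in the same data. Leaving one out removes that spread and a replicate, so adjusted p values without it can be too small. In bulk RNA, fewer cells of a kind and less RNA per cell cannot be told apart.

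DDIT4 and DDIT3 overlap genes on the other strand. DDIT4 (chromosome 10, 74033678 to 74035794 in hg19, forward strand) is overlapped by the antisense gene RP11-442H21.2, and the counts from either strand, which leave out fragments that could belong to both, came to 35.0% to 43.7% of the counts of its own strand. DDIT3 (chromosome 12, 57910371 to 57914300, reverse strand) meets the end of MARS, which runs the other way, and its counts came to 77.1% to 82.5% of those of its own strand. For the other 8 genes the share was 100.0% to 100.7%. Gene coordinates here and below are those of hg19. The CPM values of DDIT4 and DDIT3 given here are therefore too low as levels, while their log2 fold changes from their own strand alone differed by at most 0.08 from those given.

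The promoters were searched for 3 letter patterns that factors of this pathway are known to bind, and the windows with a match are shown because they belong to ASNS, CHAC1 and XBP1, whose changes before recovery are described below. RefSeq windows (GRCh38.p14, 250 bases before to 50 after a gene's start) were at hand for all 10 genes, 16 windows in all because some genes have several starts. The core of the C/EBP-ATF response element, TGATGNAA, searched on both strands, was found in windows of 2 of the 10 genes, ASNS and CHAC1, and in 3.62% of 35116 windows of all genes. The ER stress response element, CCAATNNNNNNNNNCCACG, was found in a window of XBP1 alone among the 10 genes and in 0.0769% of all windows. The core of the UPR element, TGACGTGG, was in none of the 16 windows and in 0.729% of all. The 3 windows with a match follow, from ASNS (chr7:97872359-97872658, reverse strand), CHAC1 (chr15:40953221-40953520, forward strand) and XBP1 (chr22:28800520-28800819, reverse strand), each 5′ to 3′ along the gene, with the match in capitals.
ASNS: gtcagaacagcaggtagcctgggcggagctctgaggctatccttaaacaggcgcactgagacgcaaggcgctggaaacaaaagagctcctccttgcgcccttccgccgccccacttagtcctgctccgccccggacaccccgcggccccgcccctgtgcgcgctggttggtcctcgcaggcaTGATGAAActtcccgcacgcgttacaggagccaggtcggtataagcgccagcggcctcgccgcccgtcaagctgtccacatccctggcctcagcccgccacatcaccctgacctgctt
CHAC1: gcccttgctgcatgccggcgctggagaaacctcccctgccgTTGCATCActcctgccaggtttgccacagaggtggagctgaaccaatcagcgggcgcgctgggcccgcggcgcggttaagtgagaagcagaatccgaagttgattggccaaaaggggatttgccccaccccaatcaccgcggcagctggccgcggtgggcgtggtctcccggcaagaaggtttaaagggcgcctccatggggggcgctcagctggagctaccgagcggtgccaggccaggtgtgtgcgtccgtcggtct
XBP1: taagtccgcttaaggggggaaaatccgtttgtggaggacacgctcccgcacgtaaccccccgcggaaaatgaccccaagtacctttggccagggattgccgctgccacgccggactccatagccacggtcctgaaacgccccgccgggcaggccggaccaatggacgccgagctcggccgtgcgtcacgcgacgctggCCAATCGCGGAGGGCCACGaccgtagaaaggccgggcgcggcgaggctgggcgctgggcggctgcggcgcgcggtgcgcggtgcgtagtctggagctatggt
The match began 68 bases before the start in ASNS, where it reads TGATGAAA along the gene, and 209 bases before it in CHAC1, where TTGCATCA is the pattern read on the other strand. In XBP1 the match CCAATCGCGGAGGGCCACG began 52 bases before the start. A match of letters is a description and does not show that a factor was bound.

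Levels between genes are compared per length, on the deposited TPM of each gene's own strand. ATF4 (chromosome 22, 39915700 to 39918691) was the most abundant of the 10 genes in all 8 groups, with means between 492.6 and 853.6 TPM, and in no group did its libraries overlap with those of the next gene. PHGDH had the second highest mean in 7 groups and DDIT4 in treated WT U2OS cells. In recovered WT AID-DIvA cells the libraries of PHGDH (79.6 ± 14.1 TPM, SD, n = 3) overlapped with those of PSAT1 (76.0 ± 6.55), so the second place is not separated there. CHAC1 was the least abundant in 6 groups, at 13.8 ± 1.86 TPM (SD, n = 3) in untreated KO AID-DIvA cells and 32.0 ± 6.19 in untreated WT U2OS cells. In the treated U2OS cells of both genotypes TRIB3 took the last place, at 46.9 ± 1.20 TPM in WT and 45.2 ± 2.64 in KO, where in KO its libraries overlapped with those of CHAC1. Within a group the middle of the order was crowded, and PSAT1 and DDIT4, for example, overlapped in treated KO U2OS cells.

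**Figure D1:**
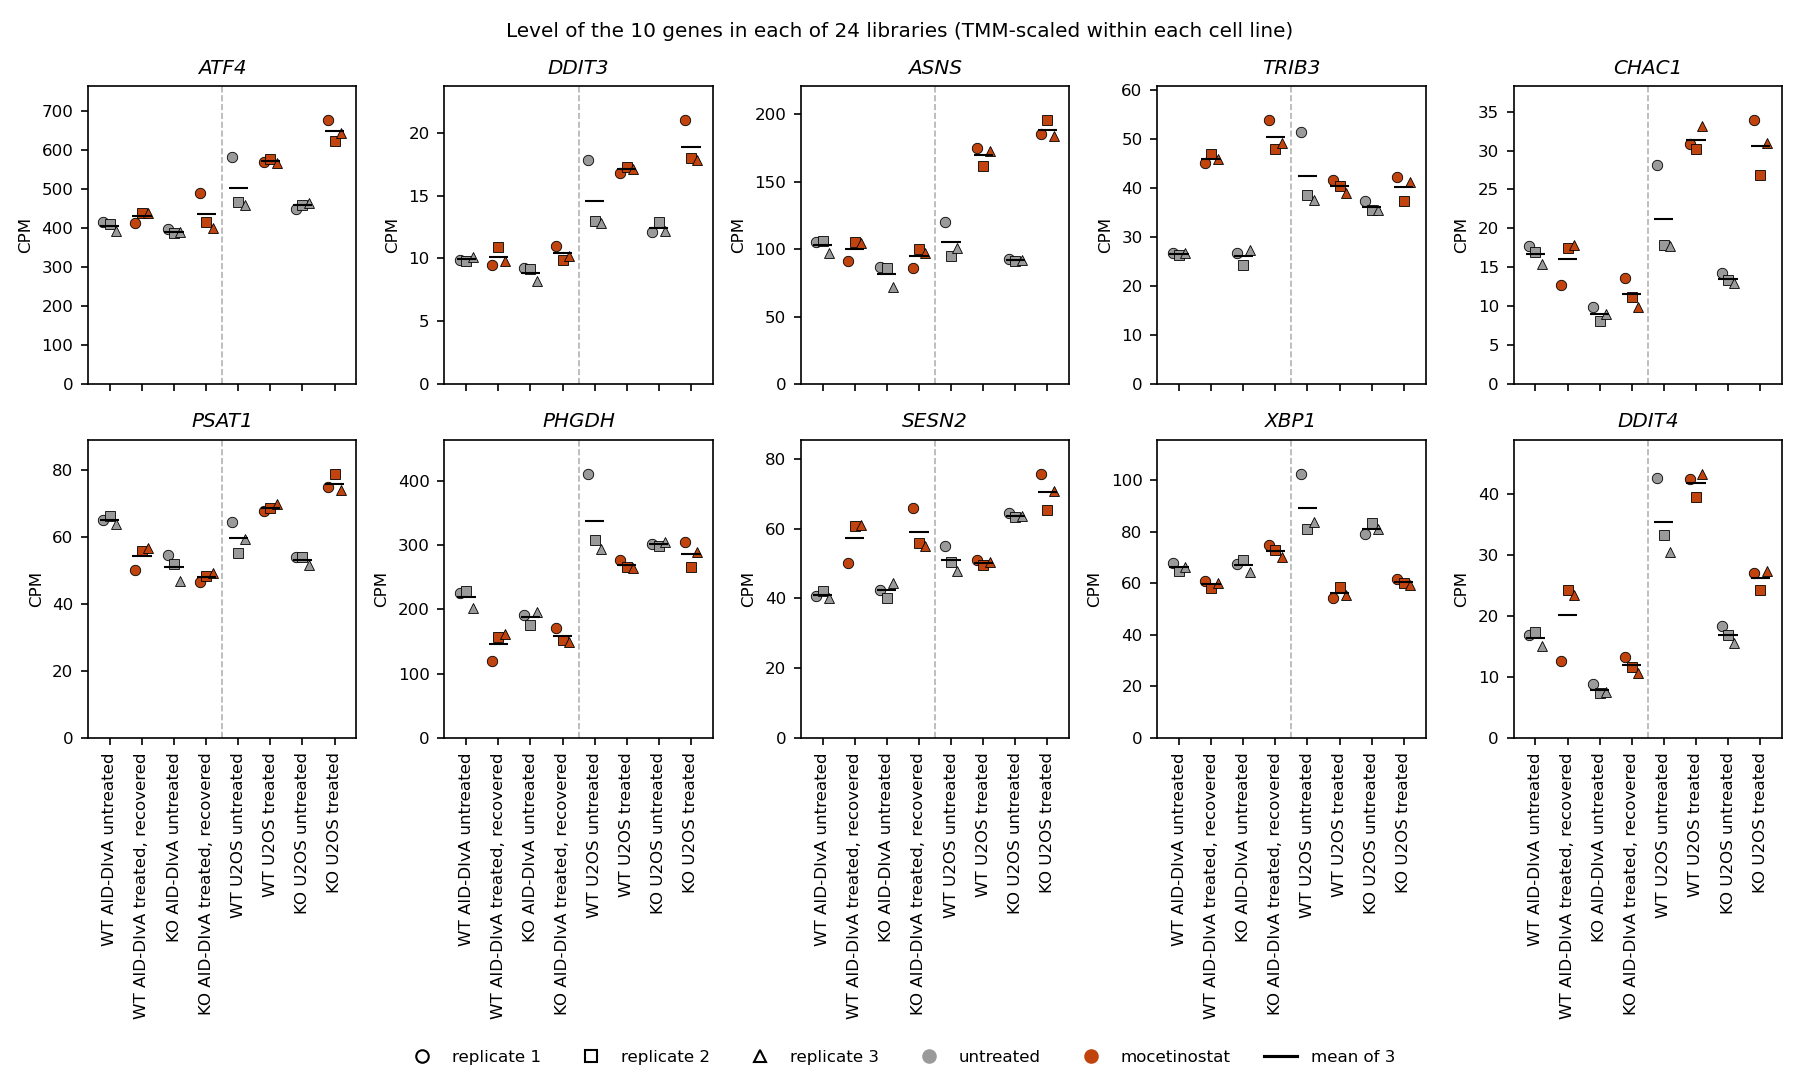
CPM (y axis from 0) of each of the 10 genes in each of the 24 libraries, grouped on the x axis, with AID-DIvA groups left and U2OS groups right of the dashed line. Marker shape is the replicate, colour the treatment and the bar the mean of 3; in U2OS cells the treated libraries of ASNS (161.9 to 195.7 CPM) sit above all untreated ones (91.4 to 120.4 CPM), and in AID-DIvA cells those of TRIB3 do (45.2 to 53.9 against 24.3 to 27.4 CPM).

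In KO U2OS cells before recovery 8 of the 10 genes were higher and 1 lower in edgeR's quasi-likelihood test at an adjusted p below 0.05, against 35.8% of all genes tested called higher and 34.0% called lower. The median log2 fold change of the 10 genes was 0.51, against 0 for all genes. In WT U2OS cells 2 were higher and 1 lower, against 26.0% and 22.9% of all genes, with a median of 0.20 against 0.01. Leaving out replicate 1 of untreated WT cells, the WT counts became 6 higher and 2 lower, against 33.9% and 32.5% of all genes. A lack of overlap between treated and untreated libraries was common. With all libraries, the treated KO libraries lay wholly above the untreated for 7 of the 10 genes and wholly below for 1. Of all genes tested, 37% and 35.3% did so. In WT cells the counts were 3 and 2, against 32.1% and 29.3%.

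ATF4 itself rose in KO U2OS cells. Its libraries read 676.5, 622.8 and 644.2 CPM after treatment and 449.3, 459.9 and 464.2 CPM without, so that the groups did not overlap, and the log2 fold change was 0.50 ± 0.04 (SE, adjusted p = 6.1e-10). In WT cells the treated libraries read 570.0, 576.5 and 568.0 CPM and the untreated 582.7, 466.5 and 457.8 CPM. The groups overlapped through untreated replicate 1, and the log2 fold change of 0.19 ± 0.10 was not called (adjusted p = 0.16). It was 0.30 and called without that library (adjusted p = 9.7e-12). DDIT3, the factor of lasting stress that ATF4 induces, went with it. Its treated KO libraries held 21.0, 18.0 and 17.8 CPM and the untreated ones 12.1, 12.9 and 12.2 CPM, a log2 fold change of 0.61 ± 0.07 (adjusted p = 5.4e-08). In WT cells 16.8, 17.3 and 17.1 CPM stood against 17.8, 13.0 and 12.8 CPM, and the difference of 0.23 ± 0.13 was called only without untreated replicate 1 (0.40, adjusted p = 6.6e-07).

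The amino acid enzymes did not move as one. ASNS (chromosome 7, 97481430 to 97501854), the enzyme that makes asparagine and a classical ATF4 target, had the clearest rise of the 10 genes. Its KO libraries read 185.8, 195.7 and 183.7 CPM after treatment against 92.8, 91.4 and 92.2 CPM, 2.05-fold or 1.03 ± 0.04 on the log2 scale (adjusted p = 1.2e-15). In WT cells they read 175.1, 161.9 and 173.0 CPM against 120.4, 94.8 and 101.1 CPM, a log2 fold change of 0.69 ± 0.10 (adjusted p = 0.00089). Treated and untreated libraries did not overlap in either genotype, and ASNS was called with and without the WT library that stood apart. PSAT1 (chromosome 9, 80912059 to 80945009), which makes the serine precursor phosphoserine, rose in KO cells from 53.9, 54.1 and 51.5 CPM to 75.0, 78.8 and 74.2 CPM (log2 fold change 0.52 ± 0.05, adjusted p = 8.7e-10). In WT cells its 3 treated libraries, at 67.9, 68.6 and 70.0 CPM, also lay above the untreated 64.6, 55.3 and 59.3 CPM, with a log2 fold change of 0.21 ± 0.08 that was not called (adjusted p = 0.059). It was 0.27 and called without untreated replicate 1 (adjusted p = 1.9e-07). PHGDH (chromosome 1, 120202421 to 120286838), the first enzyme of the same serine pathway, did not rise. Treated KO libraries at 304.5, 265.5 and 290.1 CPM overlapped with the untreated at 301.6, 299.3 and 305.8 CPM (log2 fold change -0.07, 95% interval -0.17 to 0.03). In WT cells 276.4, 265.8 and 264.0 CPM lay below the untreated 410.9, 308.5 and 293.7 CPM (-0.32 ± 0.13, adjusted p = 0.069), and the difference was smaller but called without untreated replicate 1 (-0.17, adjusted p = 2.7e-05).

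CHAC1 (chromosome 15, 41245160 to 41248710), which degrades glutathione, had the largest fold of the 10 genes in KO U2OS cells. Treated libraries held 33.9, 26.9 and 31.0 CPM and untreated ones 14.2, 13.4 and 13.0 CPM, 2.27-fold or 1.18 ± 0.07 on the log2 scale (adjusted p = 1.7e-12). In WT cells 30.9, 30.2 and 33.1 CPM stood against 28.2, 17.8 and 17.7 CPM, and the groups did not overlap (0.57 ± 0.18, adjusted p = 0.03). The WT call was lost when any 1 of the other 5 libraries was left out, and was 0.82 without untreated replicate 1 (adjusted p = 4.2e-18). DDIT4, which holds back the growth kinase mTORC1, rose in KO cells from 18.4, 16.8 and 15.5 CPM to 27.1, 24.2 and 27.4 CPM (0.64 ± 0.07, adjusted p = 1.3e-08). In WT cells it read 42.5, 39.5 and 43.3 CPM against 42.7, 33.3 and 30.5 CPM (0.24 ± 0.13, adjusted p = 0.15), called at 0.39 without untreated replicate 1 (adjusted p = 3.1e-09).

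TRIB3 and SESN2 moved little before recovery. TRIB3 (chromosome 20, 361261 to 378203), a pseudokinase that feeds back on ATF4 and DDIT3, read 42.3, 37.4 and 41.2 CPM in treated against 37.4, 35.5 and 35.6 CPM in untreated KO cells (0.16 ± 0.05, adjusted p = 0.012). SESN2 (chromosome 1, 28586038 to 28609002), which senses leucine and restrains mTORC1, read 75.6, 65.4 and 70.7 CPM against 64.4, 63.4 and 63.5 CPM (0.15 ± 0.05, adjusted p = 0.013). Both calls were lost when the 12 U2OS libraries were fitted together (adjusted p = 0.2 for TRIB3 and 0.077 for SESN2). In WT cells neither was called, with log2 fold changes of -0.07 (95% interval -0.36 to 0.21) for TRIB3 and -0.02 (-0.20 to 0.16) for SESN2. XBP1 (chromosome 22, 29190543 to 29196585), the one gene of the other branch, went down in both genotypes. It fell in WT cells from 102.3, 81.2 and 83.6 CPM to 54.2, 58.6 and 55.6 CPM (-0.66 ± 0.10, adjusted p = 0.0013) and in KO cells from 79.2, 83.2 and 80.9 CPM to 61.8, 60.1 and 59.2 CPM (-0.43 ± 0.04, adjusted p = 1.6e-08). Treated and untreated libraries of XBP1 did not overlap in either genotype.

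**Figure D2:**
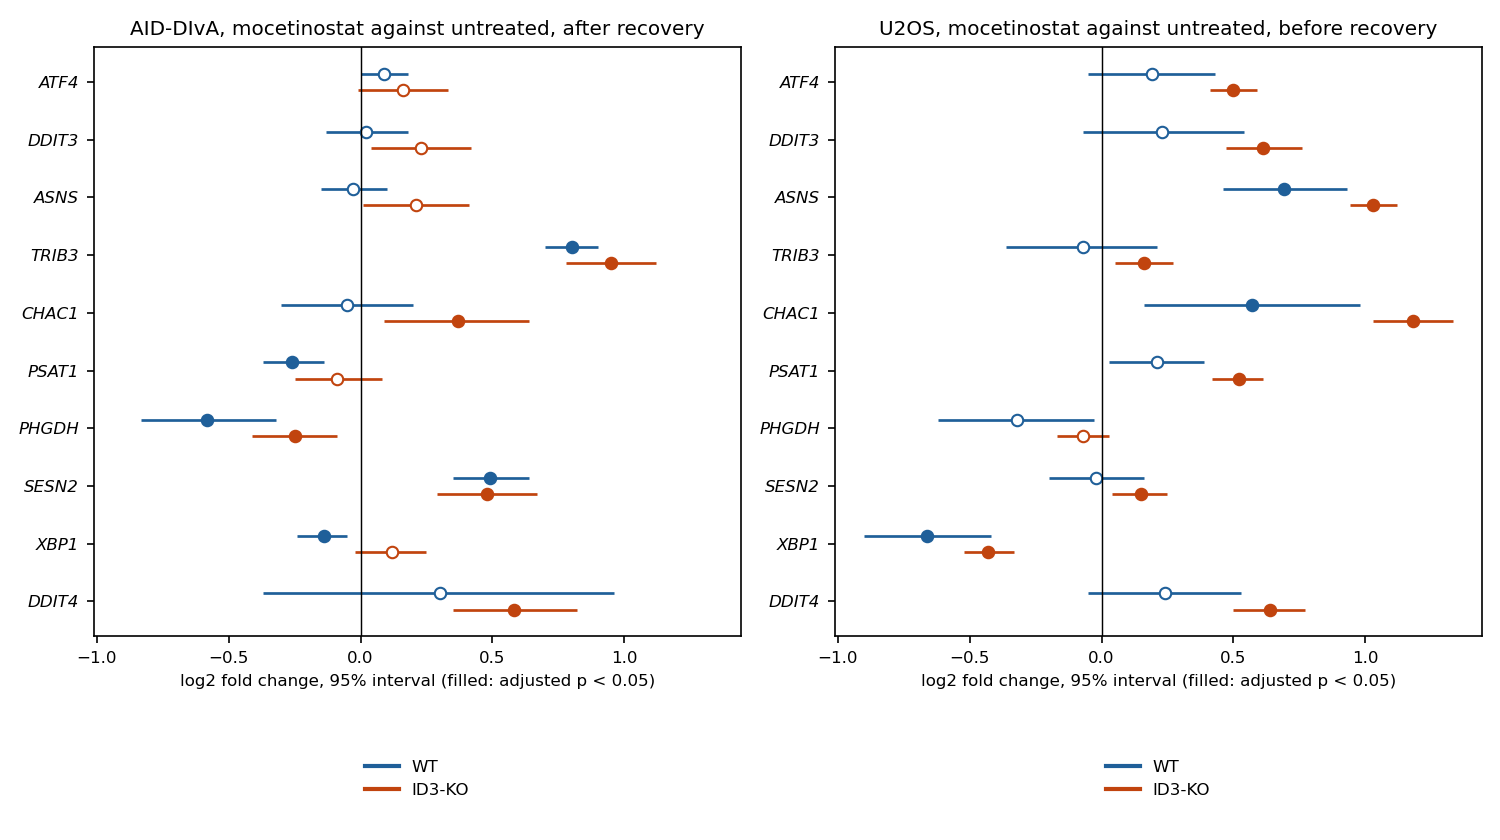
Log2 fold change with mocetinostat (x axis) of each of the 10 genes (y axis) in AID-DIvA cells after recovery and in U2OS cells before it, with 95% intervals, for WT (blue) and ID3-KO (orange). Filled points passed an adjusted p of 0.05. TRIB3 and SESN2 stand to the right after recovery (0.48 to 0.95), and ASNS and CHAC1 do before it (0.57 to 1.18).

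After recovery, in WT AID-DIvA cells, 2 genes were higher and 3 lower, against 23.9% and 23.0% of all genes tested, and in KO cells 4 were higher and 1 lower, against 20.2% and 19.9%. The medians of the 10 log2 fold changes were 0 in WT and 0.22 in KO cells, against 0 and -0.02 for all genes. Treated WT libraries lay wholly above the untreated for 2 genes and wholly below for 3, against 27.5% and 28.8% of all genes. In KO cells the counts were 7 and 1, against 25.7% and 27.4%.

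TRIB3 was the highest of the 10. WT libraries read 45.2, 47.0 and 46.0 CPM after treatment and recovery against 26.7, 26.4 and 26.7 CPM, 1.74-fold or 0.80 ± 0.05 on the log2 scale (adjusted p = 2.3e-08). KO libraries read 53.9, 48.1 and 49.3 CPM against 26.8, 24.3 and 27.4 CPM, 1.93-fold or 0.95 ± 0.08 (adjusted p = 1.1e-05). Treated libraries lay above the untreated ones throughout. SESN2 likewise rose in both genotypes. It went in WT cells from 40.6, 42.2 and 40.0 CPM to 50.2, 60.7 and 60.9 CPM (0.49 ± 0.07, adjusted p = 5.2e-05) and in KO cells from 42.3, 40.1 and 44.5 CPM to 65.9, 55.9 and 55.1 CPM (0.48 ± 0.08, adjusted p = 0.0015).

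DDIT4 rested on 1 library in WT cells. Its WT libraries read 12.6, 24.2 and 23.4 CPM after recovery against 16.8, 17.3 and 15.0 CPM, and the difference of 0.30 ± 0.26 was not called (adjusted p = 0.41). It was 0.55 without recovered replicate 1 (adjusted p = 1.3e-09). In KO cells 13.2, 11.7 and 10.7 CPM stood above 8.91, 7.31 and 7.50 CPM (0.58 ± 0.11, adjusted p = 0.002). CHAC1 was higher in KO cells, at 13.6, 11.2 and 9.91 CPM against 9.85, 8.03 and 9.01 CPM (0.37 ± 0.12, adjusted p = 0.038), a call that was lost in 4 of 6 fits that left out a library. In WT cells CHAC1 read 12.7, 17.5 and 17.9 CPM against 17.7, 17.0 and 15.4 CPM, with overlap (-0.05, 95% interval -0.30 to 0.20).

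Of the serine enzymes, PHGDH was lower after recovery in both genotypes and PSAT1 was called lower in WT cells. PHGDH fell in WT cells from 225.4, 228.5 and 202.8 CPM to 119.8, 156.7 and 161.2 CPM (-0.58 ± 0.11, adjusted p = 0.003) and in KO cells from 191.6, 175.9 and 196.1 CPM to 171.8, 152.9 and 149.9 CPM (-0.25 ± 0.07, adjusted p = 0.02). Neither comparison showed overlap, though the KO call was lost in 4 of 6 fits that left out a library. PSAT1 fell in WT cells from 65.2, 66.4 and 63.9 CPM to 50.2, 55.9 and 56.6 CPM (-0.26 ± 0.05, adjusted p = 0.0012). In KO cells it read 46.6, 48.4 and 49.3 CPM against 54.5, 52.0 and 46.9 CPM, with overlap (-0.09 ± 0.07, adjusted p = 0.37). XBP1 was a little lower in WT cells, at 60.8, 58.1 and 60.0 CPM against 67.8, 64.7 and 66.2 CPM (-0.14 ± 0.04, adjusted p = 0.018), a call lost in 3 of 6 fits that left out a library. In KO cells XBP1 read 74.7, 72.7 and 70.1 CPM against 67.6, 68.9 and 64.5 CPM (0.12 ± 0.06, adjusted p = 0.16).

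ATF4, DDIT3 and ASNS were not called in either genotype after recovery. ATF4 read 412.2, 437.7 and 439.0 CPM against 416.2, 410.5 and 392.3 CPM in WT cells (0.09, 95% interval 0.00 to 0.18) and 490.6, 415.7 and 400.6 CPM against 396.6, 387.1 and 388.8 CPM in KO cells (0.16, -0.01 to 0.33). The WT value was 0.12 and called without replicate 1 of the recovered cells (adjusted p = 0.0015). DDIT3 changed by 0.02 in WT (-0.13 to 0.18) and 0.23 in KO cells (0.04 to 0.42, adjusted p = 0.054). ASNS changed by -0.03 in WT (-0.15 to 0.10) and 0.21 in KO cells (0.01 to 0.41, adjusted p = 0.083), where it was 0.28 and called without replicate 1 of the recovered KO cells (adjusted p = 0.0072). Without that library the KO comparison still held 4 genes higher and 1 lower, with ASNS in the place of CHAC1 (0.25, adjusted p = 0.056), against 20.8% and 20.1% of all genes. Without replicate 1 of the recovered WT cells the WT comparison held 4 higher and 3 lower, against 26.6% and 25.9%.

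The responses after and before recovery were compared in 1 fit for each genotype. In WT cells 3 genes had a higher response after recovery and 3 a lower one, against 20.5% and 21.7% of all genes tested. In KO cells 3 were higher and 5 lower, against 24.8% and 27.7%. TRIB3, SESN2 and XBP1 had the higher response after recovery in both genotypes. The difference of log2 fold changes for TRIB3 was 0.87 ± 0.14 in WT (adjusted p = 0.00021) and 0.78 ± 0.10 in KO cells (adjusted p = 2.7e-06). For SESN2 it was 0.50 ± 0.11 (adjusted p = 0.0026) and 0.33 ± 0.11 (adjusted p = 0.017), and for XBP1 0.51 ± 0.12 (adjusted p = 0.003) and 0.53 ± 0.08 (adjusted p = 1.8e-05). ASNS, CHAC1 and PSAT1 had the lower response after recovery in both. For ASNS the difference was -0.73 ± 0.13 in WT (adjusted p = 0.00038) and -0.83 ± 0.10 in KO cells (adjusted p = 9.5e-07), for PSAT1 -0.48 ± 0.10 (adjusted p = 0.0017) and -0.61 ± 0.09 (adjusted p = 1e-05), and for CHAC1 -0.63 ± 0.23 (adjusted p = 0.043) and -0.82 ± 0.16 (adjusted p = 0.00026). ATF4 and DDIT3 were lower in KO cells, by -0.35 ± 0.10 (adjusted p = 0.0062) and -0.39 ± 0.12 (adjusted p = 0.01). In WT cells their differences were -0.11 (95% interval -0.36 to 0.14) and -0.21 (-0.56 to 0.13), and both were called without replicate 1 of untreated WT U2OS cells, at -0.23 and -0.39, as was PHGDH at -0.42 (adjusted p = 0.038). In KO cells PHGDH was called at -0.25 without replicate 1 of the recovered cells (adjusted p = 0.0088). For CHAC1 in WT cells the call was lost in 9 of 12 fits that left out a library, among them the fit without replicate 1 of the recovered cells (-0.48, adjusted p = 0.12).

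The genotypes already differed before treatment. In untreated AID-DIvA cells 5 of the 10 genes were lower in KO than in WT cells and none was higher in edgeR's test, against 18.1% of all genes tested called lower and 18.6% higher. At an unadjusted p below 0.05 there were 6, against 44.9% of all genes, the other being DDIT3 at -0.16, also lower in KO cells. In untreated U2OS cells 2 were lower and 1 higher, against 8.63% and 6.56%. The medians over the 10 genes were -0.19 and -0.18. When WT replicate 1 was left out the U2OS counts became 3 lower and 1 higher, against 20.6% and 20.5% of all genes, and the median was -0.07. The largest difference was that of DDIT4 in both lines. Its untreated libraries read 8.91, 7.31 and 7.50 CPM in KO and 16.8, 17.3 and 15.0 CPM in WT AID-DIvA cells, a ratio of 0.485 or a log2 fold change of -1.05 ± 0.08 (adjusted p = 5.6e-08). In U2OS cells 18.4, 16.8 and 15.5 CPM stood against 42.7, 33.3 and 30.5 CPM (-1.07 ± 0.13, adjusted p = 0.0021). No KO library overlapped with a WT one, and the call held without each single library. CHAC1 was second, at 9.85, 8.03 and 9.01 CPM against 17.7, 17.0 and 15.4 CPM in AID-DIvA cells (-0.90 ± 0.08, adjusted p = 2.2e-07) and at 14.2, 13.4 and 13.0 CPM against 28.2, 17.8 and 17.7 CPM in U2OS cells (-0.65 ± 0.18, adjusted p = 0.048). The U2OS value was -0.40 without WT replicate 1 (adjusted p = 2.2e-06), while other single libraries left out ended the call 3 times.

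The 3 amino acid enzymes were also lower in untreated KO AID-DIvA cells. The log2 fold changes were -0.34 ± 0.05 for PSAT1 (adjusted p = 1e-04), -0.33 ± 0.06 for ASNS (adjusted p = 0.00065) and -0.22 ± 0.05 for PHGDH (adjusted p = 0.0048), the last not called when the 12 AID-DIvA libraries were fitted together (adjusted p = 0.096). In untreated U2OS cells the same genes gave -0.17, -0.19 and -0.16, none of them called. Without WT replicate 1 they were -0.11 for PSAT1, now called (adjusted p = 0.044), -0.09 for ASNS (adjusted p = 0.058) and 0.00 for PHGDH. SESN2 was higher in untreated KO U2OS cells, at 64.4, 63.4 and 63.5 CPM against 54.9, 50.5 and 47.8 CPM (0.32 ± 0.07, adjusted p = 0.026). The value was 0.37 and called without WT replicate 1 (adjusted p = 1.3e-09). In the other 5 of 6 fits that left out a library the call was lost. In AID-DIvA cells SESN2 differed by 0.05 (95% interval -0.06 to 0.16). ATF4 mRNA itself differed by -0.05 (-0.14 to 0.03) in AID-DIvA and -0.13 (-0.37 to 0.10) in U2OS cells.

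**Figure D3:**
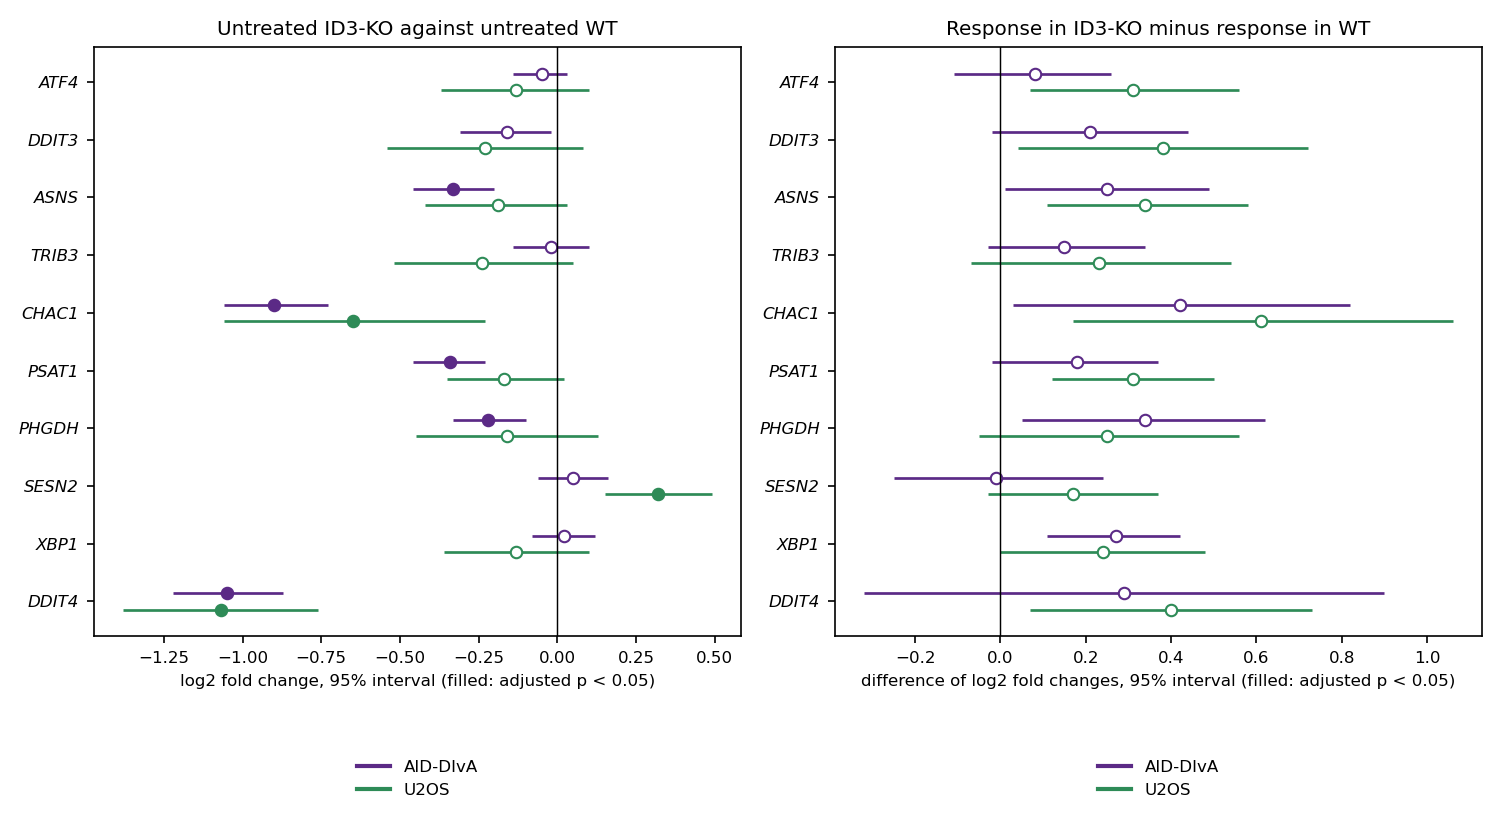
Log2 fold change of untreated ID3-KO against untreated WT cells (left) and the difference between the KO and the WT response to mocetinostat (right), on the x axes, for each of the 10 genes (y axis) in AID-DIvA (purple) and U2OS cells (green), with 95% intervals. Filled points passed an adjusted p of 0.05. DDIT4 lies near -1.05 and -1.07 before treatment in the 2 lines, and no difference between responses passed the test.

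Whether the KO response differed from the WT response was tested as an interaction. None of the 10 genes passed in either line, against 0.762% of all genes called above 0 and 0.451% below 0 in AID-DIvA cells and 1.10% and 1.06% in U2OS cells. At an unadjusted p below 0.05, 4 of the 10 genes stood out in AID-DIvA cells, where 11.8% of all genes did, and 6 in U2OS cells, where 13.2% did. DESeq2 called XBP1 in AID-DIvA cells (adjusted p = 0.022) and PSAT1 in U2OS cells (adjusted p = 0.039). The differences of log2 fold changes were above 0 for 9 of the 10 genes in AID-DIvA cells and for all 10 in U2OS cells, while 46.4% and 51.2% of all genes were above 0. These 10 values share their libraries and are not independent. Without replicate 1 of both recovered groups, ATF4 (-0.05), DDIT4 (-0.03) and SESN2 (-0.18) lay below 0 in AID-DIvA cells. The 4 genes at an unadjusted p below 0.05 there became 2 without that of WT cells. They became 3 without that of KO cells, and 3 without both. In U2OS cells 7 were left without replicate 1 of untreated WT cells. The shares of all genes in these fits were not counted. With all libraries, the largest difference was that of CHAC1, at 0.42 (95% interval 0.03 to 0.82) in AID-DIvA and 0.61 (0.17 to 1.06) in U2OS cells. That of SESN2 in AID-DIvA cells was -0.01 (-0.25 to 0.24). The interaction uses the same untreated libraries as the differences before treatment. Treated KO means of CHAC1 were not above WT, at 30.6 against 31.4 CPM in U2OS and 11.6 against 16.0 CPM in AID-DIvA cells. Treated U2OS means were higher in KO for ATF4 (647.9 against 571.5 CPM), ASNS (188.4 against 170.0 CPM) and PSAT1 (76.0 against 68.8 CPM). In U2OS cells the intervals of ATF4 (0.07 to 0.56), DDIT3 (0.04 to 0.72), ASNS (0.11 to 0.58), PSAT1 (0.12 to 0.50) and DDIT4 (0.07 to 0.73) lay above 0 before adjustment.

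The U2OS interaction depended on which libraries were kept. Of the 12 fits that left out 1 library, 2 called ASNS and PSAT1, and 1 of these also called CHAC1 and ATF4. Over all genes the number called ran from 257 to 2091 in these fits, against 488 with all libraries. Without replicate 1 of untreated WT cells 4 genes were called, against 4.46% of all genes called higher and 4.56% lower. They were ASNS at 0.24 (adjusted p = 0.0075), PSAT1 at 0.25 (adjusted p = 0.0081), CHAC1 at 0.36 (adjusted p = 0.013) and ATF4 at 0.20 (adjusted p = 0.016). The differences were smaller than with all libraries for all 10 genes, and their intervals were narrower. In AID-DIvA cells, leaving out replicate 1 of both recovered groups gave 1 call, XBP1 at 0.25 (adjusted p = 0.05), against 1.37% and 1.17% of all genes.

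**Figure D4:**
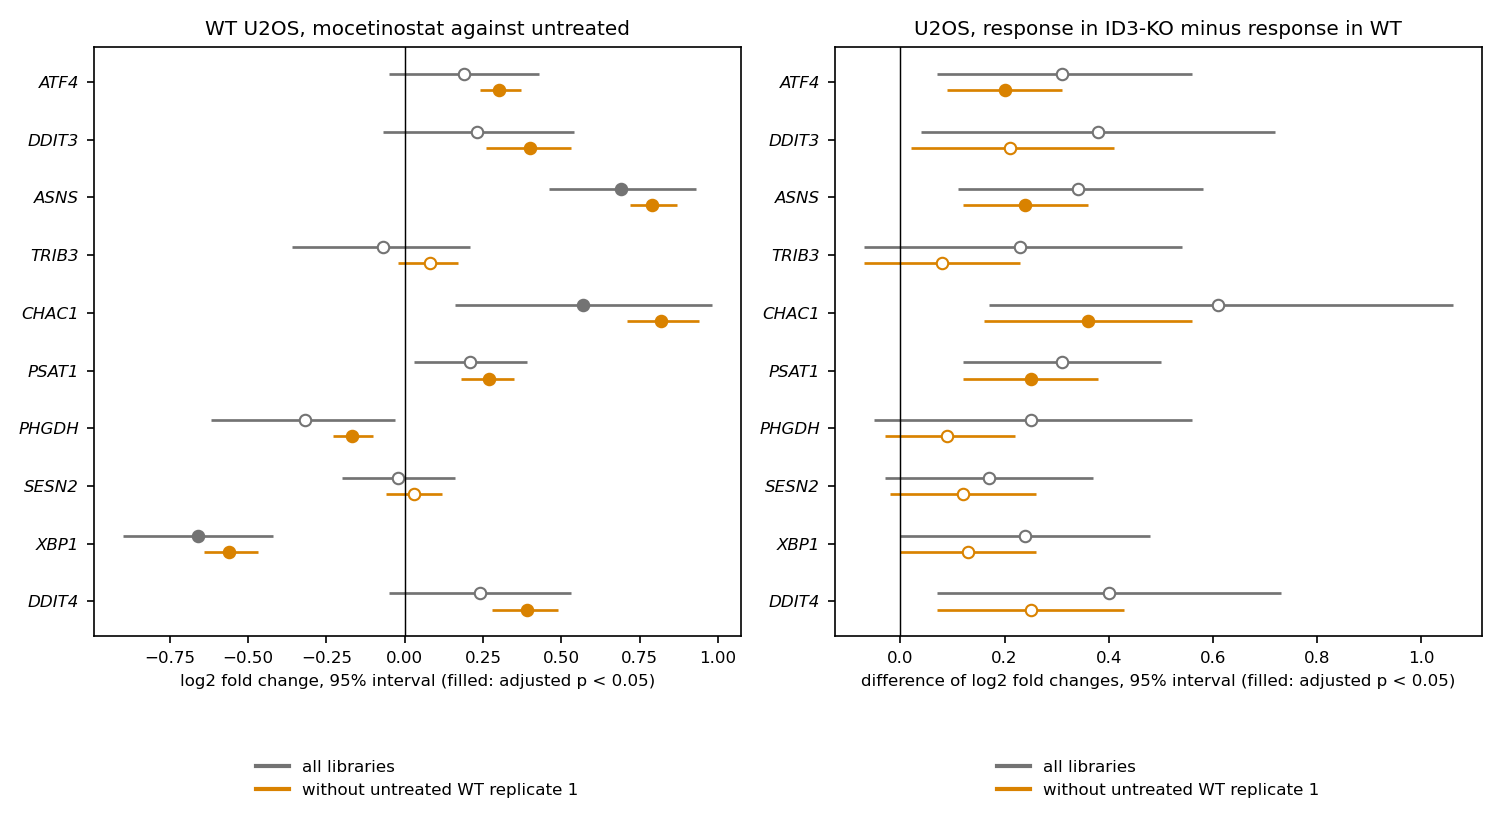
Log2 fold change with mocetinostat in WT U2OS cells (left) and difference between the KO and the WT response in U2OS cells (right), on the x axes, with 95% intervals, from all libraries (grey) and without replicate 1 of untreated WT cells (orange), for each of the 10 genes (y axis). Filled points passed an adjusted p of 0.05. Leaving out that library raised the WT count from 3 to 8 genes and the interaction count from 0 to 4. Calls over all genes tested rose as well, from 10653 of 21797 to 14888 of 22423 in the WT response. In the interaction they rose from 488 of 22647 to 2091 of 23164.

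Across the 24 libraries, with log2 CPM centred within each cell line, the 10 genes did not follow 1 pattern. Of the 45 pairs 30 had a positive Pearson correlation, with a median of 0.25 and a range from -0.76 (ASNS with XBP1) to 0.94 (ATF4 with DDIT3). ASNS with DDIT3 reached 0.87, ASNS with CHAC1 0.84 and CHAC1 with DDIT4 0.83. TRIB3 was closest to SESN2, at 0.68. PHGDH and XBP1 had each other as the nearest of the 10, at 0.46. These are descriptions over libraries that share groups, and treatment and genotype make up much of the spread. Among 14975 other genes the closest to each was ELOF1 for ATF4 (r = 0.91), RBM38 for DDIT3 (0.93), RAB39B for ASNS (0.97), ZNF607 for PSAT1 (0.91), THY1 for PHGDH (0.91), GRINA for TRIB3 (0.98), CHST1 for CHAC1 (0.94), PPP6R1 for SESN2 (0.91), RASGEF1A for DDIT4 (0.96) and RP11-983P16.4 for XBP1 (0.95). By Spearman's rank correlation the same gene stayed first for DDIT3, TRIB3 and DDIT4.

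The wider pathway was read from 9 lists of 82 other genes, of which 81 were tested. In WT AID-DIvA cells after recovery 25 of the 81 were higher and 28 lower, in KO AID-DIvA cells 24 and 15, in WT U2OS cells before recovery 18 and 19, and in KO U2OS cells 42 and 27. The medians of their log2 fold changes were -0.02, 0.02, 0.04 and 0.15. The shares of all genes called in each comparison are those given above. Leaving out replicate 1 of untreated WT U2OS cells, the WT counts before recovery, higher and lower, became 7 and 0 for the other targets, 4 and 1 for the other amino acid enzymes, 3 and 4 for the transporters, 5 and 3 for the eIF2alpha list, 2 and 4 for the leucine zipper partners and 2 and 3 for the paralogs. After recovery the other amino acid enzymes counted 5 and 1 without replicate 1 of recovered WT cells, and without replicate 1 of recovered KO cells the serine and one-carbon enzymes counted 0 and 2, the eIF2alpha list 0 and 4 and the leucine zipper partners 2 and 2. Beyond these counts, the genes named here are the highest and the lowest of a list among those called, except CBS in WT cells after recovery. The lists were drawn up with earlier results of these data known.

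Among 8 other targets of ATF4 or DDIT3, 6 were higher and 1 lower in WT cells after recovery, 5 and 1 in KO cells, and before recovery 5 and 0 in WT and 7 and 0 in KO cells. Medians were 0.44, 0.65, 0.61 and 0.48. GDF15, a secreted stress cytokine, was the highest of this list in each comparison. It rose after recovery from 1.27 ± 0.13 to 10.1 ± 1.78 CPM in WT (SD, n = 3, log2 fold change 2.97 ± 0.14 SE, adjusted p = 3.8e-09) and from 0.93 ± 0.10 to 12.4 ± 2.70 CPM in KO cells (3.71 ± 0.17, adjusted p = 5.4e-07). Before recovery it rose by 1.24 ± 0.29 in WT (adjusted p = 0.009) and 1.65 ± 0.14 in KO cells (adjusted p = 3.8e-10). VLDLR, a lipoprotein receptor, was the one lower after recovery, by -0.77 ± 0.07 in WT and -0.60 ± 0.08 in KO cells.

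Of 12 aminoacyl-tRNA synthetases, which load tRNAs, 8 were higher and 0 lower in WT cells after recovery and 6 and 0 in KO cells, while before recovery 0 were higher and 4 lower in WT and 3 and 6 in KO cells. Their changes were small, with medians of 0.15, 0.18, -0.04 and -0.10. SARS, which loads serine, was the highest after recovery (0.22 ± 0.04 in WT and 0.34 ± 0.07 in KO cells), and WARS, which loads tryptophan, was the lowest before it (-0.42 ± 0.07 and -0.52 ± 0.05). The WT count before recovery was, without replicate 1 of untreated cells, 3 higher and 6 lower. Among 7 other amino acid enzymes CTH, which makes cysteine from cystathionine, rose before recovery from 8.14 ± 0.52 to 17.6 ± 1.06 CPM in WT (1.12 ± 0.09, adjusted p = 4.4e-05) and from 5.79 ± 0.35 to 12.8 ± 0.83 CPM in KO cells (1.15 ± 0.08, adjusted p = 9.2e-12). CBS, the enzyme before it, fell before recovery (-0.63 ± 0.08 and -0.58 ± 0.04) and was higher after it (0.41 ± 0.05, adjusted p = 1.7e-05 in WT and 0.60 ± 0.07, adjusted p = 0.00016 in KO cells). In WT cells after recovery CTH was the highest, at 0.46 ± 0.13 (adjusted p = 0.011). This list counted 2 higher and 1 lower in WT and 4 and 2 in KO cells before recovery, and 2 and 1 in WT and 5 and 0 in KO cells after it.

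Of 6 serine and one-carbon enzymes 0 were higher and 3 lower in WT and 2 and 4 in KO cells before recovery, and after it 1 and 3 in WT and 1 and 2 in KO cells. The WT count before recovery was 0 and 6 without replicate 1 of untreated cells. MTHFD1L, a mitochondrial folate enzyme, fell before recovery from 153.3 ± 11.8 to 83.3 ± 3.21 CPM in WT (-0.87 ± 0.08, adjusted p = 9.2e-05) and from 165.7 ± 4.59 to 91.5 ± 1.02 CPM in KO cells (-0.86 ± 0.04, adjusted p = 3.4e-14). ALDH1L2, another of them, was the lowest after recovery (-0.95 ± 0.08 in WT and -0.36 ± 0.10 in KO cells) and the highest in KO cells before it (0.29 ± 0.07). Of 9 amino acid transporters 2 were higher and 3 lower in WT and 2 and 2 in KO cells after recovery, and 2 and 2 in WT and 4 and 3 in KO cells before it. SLC1A4, which carries neutral amino acids, was the highest before recovery (1.02 ± 0.07 in WT and 1.27 ± 0.04 in KO cells) and the glycine carrier SLC6A9 the lowest (-1.84 ± 0.08 and -1.76 ± 0.06). After recovery the cystine carrier SLC7A11 was the lowest, falling from 65.8 ± 1.24 to 27.7 ± 2.77 CPM in WT (-1.24 ± 0.06, adjusted p = 5.8e-09) and from 46.8 ± 5.01 to 22.9 ± 3.90 CPM in KO cells (-1.03 ± 0.13, adjusted p = 0.00018).

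**Figure D5:**
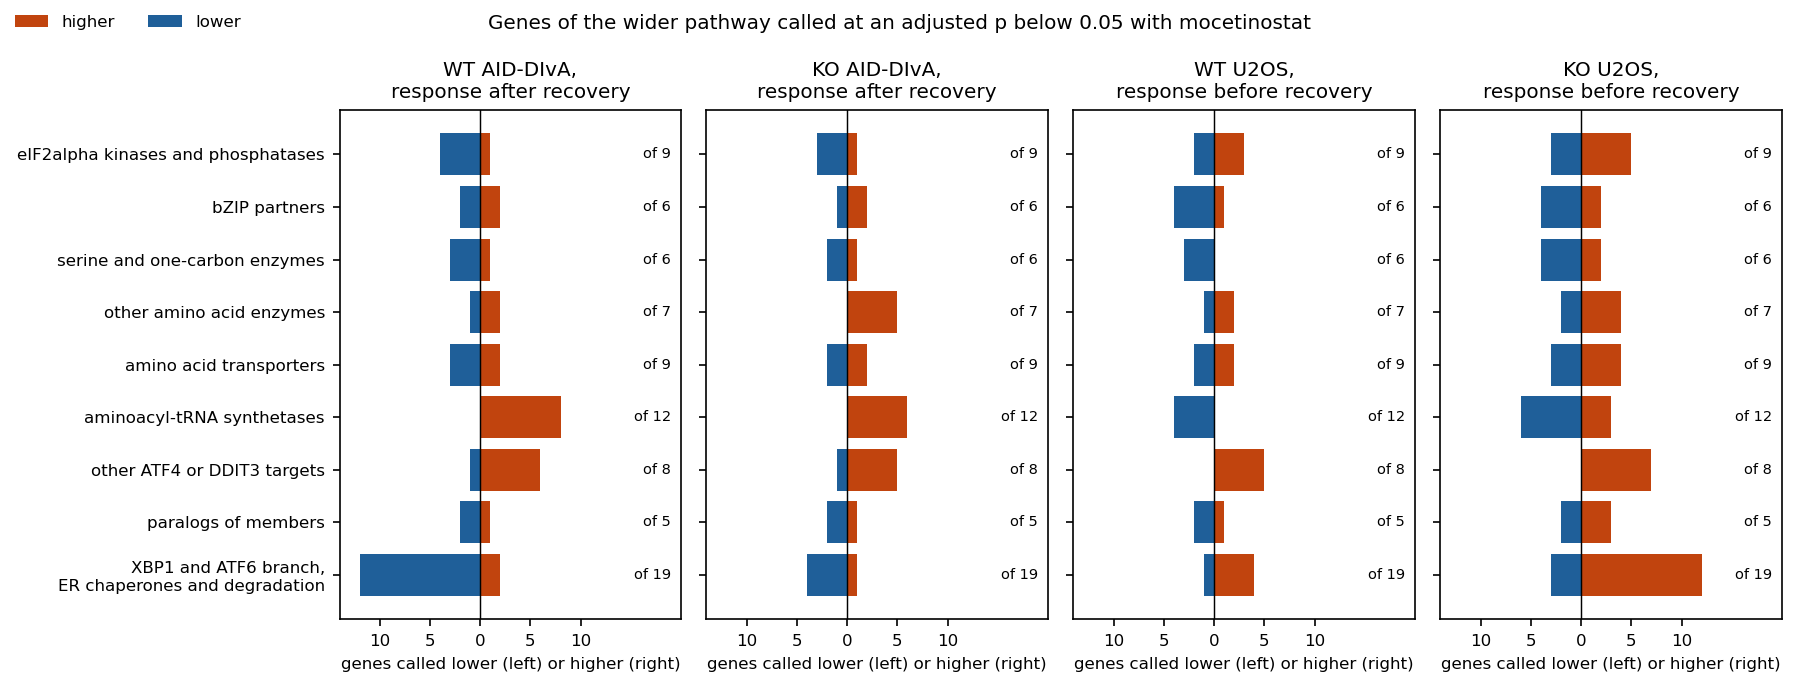
Number of genes called lower (blue, left) or higher (orange, right) with mocetinostat on the x axes, for 9 lists of the wider pathway (y axis) in the 4 treatment comparisons, with the number tested at the right of each panel. The aminoacyl-tRNA synthetases have 8 and 6 genes to the right after recovery in WT and KO cells, against 23.9% and 20.2% of all genes. The XBP1 and ATF6 list has 12 to the left in WT cells after recovery, against 23.0% of all genes. It has 12 to the right in KO cells before recovery, against 35.8%. Its other panels hold 1 higher and 4 lower (KO after recovery) and 4 higher and 1 lower (WT before it). These 2 panels changed when a library that stood apart was left out.

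Upstream of ATF4, a list of 9 genes, eIF2alpha, its kinases and its phosphatases together with OMA1 and KIAA0141 (DELE1), which relay mitochondrial stress to such a kinase, counted 1 higher and 4 lower in WT and 1 and 3 in KO cells after recovery, and 3 and 2 in WT and 5 and 3 in KO cells before it. PPP1R15B, a subunit of a phosphatase of eIF2alpha, was the highest before recovery (0.56 ± 0.13 in WT and 0.43 ± 0.04 in KO cells), and EIF2AK4, the kinase of missing amino acids also called GCN2, was the lowest (-0.47 ± 0.12 and -0.52 ± 0.04). After recovery EIF2AK3, the kinase PERK, was the lowest in WT cells (-0.42 ± 0.05). Among 6 leucine zipper partners and cofactors the count was 2 higher and 2 lower in WT and 2 and 1 in KO cells after recovery, and 1 and 4 in WT and 2 and 4 in KO cells before it. ATF3, an early stress factor, rose before recovery from 30.1 ± 0.41 to 113.0 ± 0.89 CPM in WT (1.92 ± 0.07, adjusted p = 1.2e-06) and from 38.0 ± 4.37 to 123.4 ± 6.17 CPM in KO cells (1.70 ± 0.06, adjusted p = 3.6e-15). NUPR1 was the lowest of them there (-2.10 ± 0.21 and -1.69 ± 0.06), and ATF5 was the lowest after recovery (-0.73 ± 0.06 in WT and -1.11 ± 0.07 in KO cells).

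Of 6 paralogs of the 10 genes 5 were tested, and 1 was higher and 2 lower in each comparison except KO U2OS cells before recovery, with 3 and 2. TRIB1, a relative of TRIB3, rose in all 4 comparisons, by 0.71 ± 0.08 and 0.99 ± 0.08 in WT and KO cells after recovery and 1.39 ± 0.07 and 1.38 ± 0.05 before it. TRIB2 was the lowest in 3 of them, at -2.29 ± 0.06 and -1.43 ± 0.08 after recovery and -1.18 ± 0.13 in WT cells before it.

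The 19 genes of the XBP1 and ATF6 branch, with ER chaperones and degradation factors, counted 2 higher and 12 lower in WT cells after recovery and 1 and 4 in KO cells. Before recovery the counts were 4 and 1 in WT and 12 and 3 in KO cells. Their medians were -0.20, -0.03, 0.10 and 0.19. ERN1, which encodes the kinase and endonuclease IRE1 that splices XBP1 mRNA, was the highest before recovery, rising from 14.9 ± 0.10 to 30.9 ± 0.87 CPM in WT (1.06 ± 0.07, adjusted p = 1.5e-05) and from 12.1 ± 0.59 to 27.2 ± 1.96 CPM in KO cells (1.17 ± 0.07, adjusted p = 2.3e-13), while XBP1 fell in the same cells. HYOU1, an ER chaperone, was the lowest in WT cells after recovery (-0.33 ± 0.05, adjusted p = 0.00015). Without replicate 1 of untreated WT U2OS cells the WT count before recovery became 8 higher and 6 lower, and without replicate 1 of recovered KO cells the KO count after recovery became 3 and 6. Whether these counts differ between the genotypes was not tested.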

How the data were processed

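Stranded total RNA was sequenced as paired reads of 100 bp, and the authors aligned them with STAR to hg19 and counted them per gene with featureCounts. Versions of these tools are not given in the sources used here. The deposited tables hold counts from either strand, which were used as deposited, and counts of each strand. They also hold TPM values that the authors computed, of which those of the reverse strand, where this kit places genes, were used for levels between genes. Groups were taken from the sample titles, against the treatment field in 12 libraries. Each sample's replicates are called biological in the study.

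Counts were tested with edgeR 4.0.16 in R 4.3.3 (TMM scaling, filterByExpr, robust quasi-likelihood fit), with Benjamini-Hochberg adjustment over all genes tested and calls at an adjusted p below 0.05. Treatment and genotype comparisons used their 6 libraries, interactions the 12 of a cell line, and differences between stages the 12 of a genotype. The SE follows from the log2 fold change and its F statistic, and intervals are 95% intervals. The scripts were tested on simulated data. The 10 genes and the pathway lists were chosen with earlier results of these data known. Of each pathway list, the genes with the highest and lowest log2 fold change among those called with a mean of at least 1 CPM could be named, and for each of the 10 genes the closest other gene by Pearson correlation. CBS in WT cells after recovery was named outside this rule. Alternatives were DESeq2 1.42.0, scaling by its size factors, genes kept at any count above 0, reverse-strand counts, a replicate block, 12 libraries in 1 fit, Spearman's correlation, and leaving out each library. Leaving out 2 libraries together, and the list counts without the libraries that stood apart, were added after seeing the data. No 2 replicates were close enough to be 1 library, with chi-square values per gene from 2.79 to 103.0 in 24 pairs. Replicates were not treated as paired by number, since in no pair of groups did all 3 numbers correlate above 0.1. This rule cannot exclude a pairing.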

Additional observations from a re-analysis of the deposited data

Results flagged for a closer look

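The response to mocetinostat differed between the cells collected after recovery and those collected before it for 6 of the 10 genes in WT and 8 in KO cells, by edgeR's test of the difference itself. Of all genes tested, 20.5% were called higher and 21.7% lower in WT cells, and 24.8% and 27.7% in KO cells. Values are the log2 fold change after recovery minus that before it. In WT cells TRIB3 differed by 0.87, XBP1 by 0.51 and SESN2 by 0.50, while PSAT1 differed by -0.48, CHAC1 by -0.63 and ASNS by -0.73. In KO cells TRIB3 differed by 0.78, XBP1 by 0.53 and SESN2 by 0.33, while ATF4 differed by -0.35, DDIT3 by -0.39, PSAT1 by -0.61, CHAC1 by -0.82 and ASNS by -0.83. Stage and cell line cannot be told apart in these values. With 3 libraries a group, single libraries within a group were not tested as outlying.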

How the results depend on the processing

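Under DESeq2, its size factors, no filter, reverse-strand counts, 1 fit of 12 libraries and the replicate block, most fold changes of the 10 genes kept their direction and side of the threshold. In 1 fit of 12 libraries TRIB3 (adjusted p = 0.2) and SESN2 (0.077) in KO U2OS cells and PHGDH in untreated AID-DIvA cells (0.096) lost their calls, as CHAC1 in untreated U2OS cells did with the size factors (0.052). Calls were gained by DDIT3 (0.049 with size factors, 0.025 with 12 libraries) and ASNS (0.026 with no filter, 0.039 with 12 libraries) in KO AID-DIvA cells, by PSAT1 (0.039 on the reverse strand, 0.013 with 12 libraries) and PHGDH (0.035 with no filter, 0.013 with 12 libraries) in WT U2OS cells, and by DDIT3 in untreated AID-DIvA cells (0.03 on the reverse strand). The WT U2OS response had 5 of the 10 genes called with 12 libraries in 1 fit, and untreated KO against WT U2OS cells had 5658 genes called there against 3132. In the AID-DIvA interaction, DESeq2 called 1 of the 10 genes (XBP1) and no filter called 2 (CHAC1, adjusted p = 0.041, and PHGDH, 0.0086), while over all genes DESeq2 called 466, no filter 613 and the replicate block 157, against 258. Without replicate 1 of both recovered groups, 1 of the 10 genes and 549 genes were called, and ATF4 (-0.05) and DDIT4 (-0.03) turned below 0, while SESN2 was -0.18 and, with single libraries left out, DDIT4 reached 0.45. SESN2, at -0.01 there, was 0.00 with DESeq2 and with its size factors, and 0.01 with no filter and with reverse-strand counts. In the U2OS interaction, DESeq2 called 1 of the 10 genes (PSAT1) and 917 genes, and no filter 2 (CHAC1, adjusted p = 0.0033, and DDIT4, 0.044) and 775, against 488. The cause was not tested.

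Same-numbered replicates correlated between -0.39 and 0.31, and 1 of 12 AID-DIvA and 10 of 12 U2OS libraries lay closest to their own number, which is a hint from the data and not the design. With the replicate block SESN2 in untreated U2OS cells (adjusted p = 0.068) and CHAC1 between stages in WT cells (adjusted p = 0.062) lost their calls, and the block changed no other call of the 10 genes.

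Leaving out 1 library moved the calls among the 10 genes from 3 to 5 for KO AID-DIvA cells, 2 to 8 for WT U2OS cells, 1 to 4 for untreated U2OS cells and 0 to 4 for the U2OS interaction. Over all genes, those called ran from 5833 to 8585 for KO AID-DIvA cells, 8057 to 14888 for WT U2OS cells and 1266 to 8627 for untreated U2OS cells. They ran from 122 to 297 for the AID-DIvA interaction and 257 to 2091 for the U2OS interaction. Log2 fold changes crossed 0 for ASNS (-0.07 to 0.03), CHAC1 (-0.15 to 0.09) and DDIT3 (-0.03 to 0.06) in WT AID-DIvA cells, TRIB3 (-0.16 to 0.08) and SESN2 (-0.07 to 0.03) in WT U2OS cells, TRIB3 in untreated AID-DIvA cells (-0.06 to 0.04), PHGDH in untreated U2OS cells (-0.25 to 0.00), SESN2 (-0.10 to 0.06) and ATF4 (-0.02 to 0.15) in the AID-DIvA interaction, and DDIT4 between stages in WT (-0.10 to 0.31) and KO cells (-0.13 to 0.05). By Spearman's correlation 7 of the 10 closest genes no longer ranked first, at 0.88 for ATF4 with ELOF1, 0.96 for ASNS with RAB39B, 0.89 for CHAC1 with CHST1 and PSAT1 with ZNF607, 0.92 for PHGDH with THY1, 0.87 for SESN2 with PPP6R1 and 0.95 for XBP1 with RP11-983P16.4.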
